A study of Mus musculus and Homo sapiens with 10 samples.

Results

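The libraries described here are the 2 of vehicle-treated TK6 cells, taken by their titles (TK6, DMSO, replicates 1 and 2) from a series of 10 libraries in 5 groups. TK6 is an established human B lymphoblastoid cell line. DMSO is the solvent in which drugs are given to such cells, so these libraries show break ends found without an added drug. Whether some of these ends arose in handling was not tested. No genotype change, dose or culture time is given in the labels, and they do not say whether the replicates were separate cultures, so the spread between them may be technical. Breaks were mapped by BLISS: after mild lysis, broken DNA ends are made blunt and ligated to an adapter, and the tagged ends are copied into RNA and sequenced. Each file lists positions of the human genome (GRCh37) with a number of break ends, and the labels do not say whether that number counts reads or molecules. Chromosomes 1 to 22 held 1059728 break ends at 1037476 positions in replicate 1 and 574645 at 569694 positions in replicate 2, which was 98.0% and 98.2% of each library.

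Double-strand breaks arise in growing cells without any drug, where replication forks stall or collapse, where topoisomerases cut DNA to relieve torsion, and where transcription keeps chromatin open. Breaks that last longer, or that form more often over a population of cells, give more ends. A cell count is not given, so all values below are shares of a library and not breaks per cell. Copies of a chromosome and breaks per copy cannot be told apart in such data. Markers of a cell type cannot be read from break ends, and the labelled identity of the cells was not checked.

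Break ends were spread unevenly over the autosomes. Density is given here as the share of a library's autosomal break ends divided by the share of autosomal length, so that 1 is the autosomal average. Chromosome 19 was densest by the mean of the libraries, with 1.71 in replicate 1 and 2.18 in replicate 2 (mean 1.95 ± 0.333, SD, n = 2). Chromosome 20 followed with 1.77 and 2.0, chromosome 17 with 1.66 and 1.86, chromosome 22 with 1.33 and 1.71, and chromosome 16 with 1.24 and 1.42. Chromosome 4 was lowest at 0.709 and 0.607 (mean 0.658 ± 0.0723). Chromosome 18 had 0.835 and 0.767, and chromosome 5 had 0.841 and 0.775. As background, human autosomes differ in how many genes they hold per length. No human gene table was used, so whether density followed gene content was not tested.

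Both libraries ranked the autosomes alike at the extremes and less so in the middle. The 5 densest chromosomes were the same in both libraries, as were the 3 sparsest, and over the 22 autosomes the Spearman correlation between libraries was 0.920, a description of points that share these libraries. Of the 21 pairs of neighbours in the order of the means, 17 had ranges over the libraries that overlapped, so those neighbours did not differ beyond the spread between libraries. In 8 of the 17 the order was nonetheless the same within each library, chromosome 17 over 22 and 22 over 16 among them. The pairs that did not overlap were chromosomes 16 and 11, 11 and 10, 10 and 1, and 18 and 4. From chromosome 1 (1.03 and 1.04) and chromosome 12 (1.06 and 0.988) down to chromosome 18 every neighbouring pair overlapped. Chromosomes 2, 3, 5 to 9, 13 to 15, 18 and 21 made up the rest of that stretch, with values between 0.767 and 1.0 in either library. The densest chromosome had 2.50 times the density of the sparsest in replicate 1 and 3.6 times in replicate 2.

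**Figure D1:**
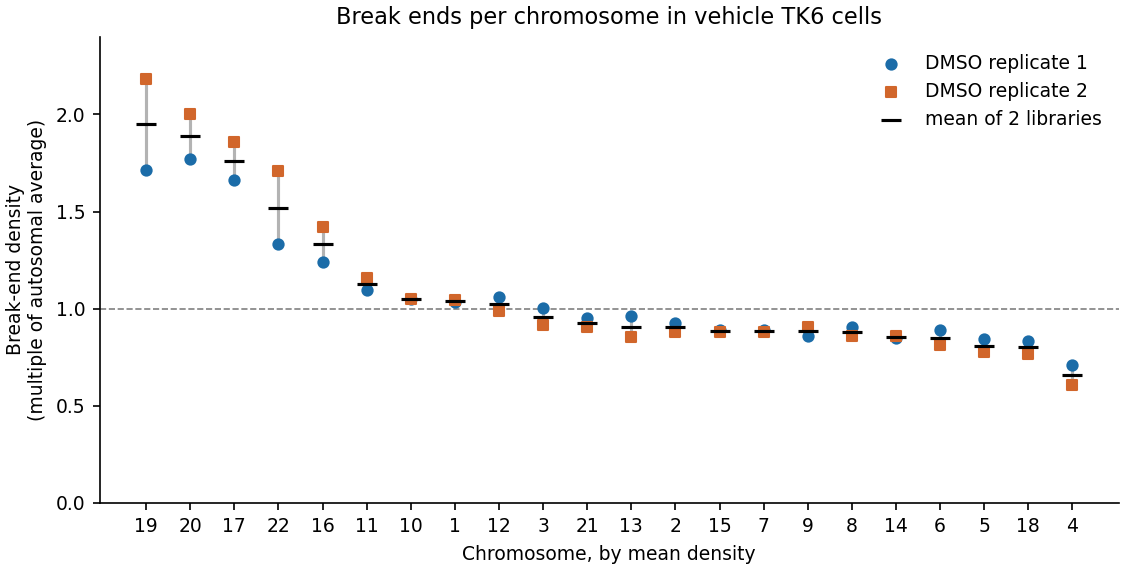
Break-end density of each autosome (vertical axis, multiple of the autosomal average) in DMSO replicate 1 (circles) and replicate 2 (squares) and their mean (short bar), joined by a grey line and ordered by the mean. Chromosomes 19, 20, 17, 22 and 16 lie above the dashed average in both libraries and further above it in replicate 2, and chromosome 4 lies lowest in both.

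Empty stretches of the assembly weigh on the chromosomes with unsequenced short arms. In all, 27 runs of at least 1 Mb held no break end in either library and spanned 191 Mb. Covered bins were therefore defined as 1 Mb bins in which at least 70% of the 10 kb windows held a break end in the libraries together. They numbered 2583 of 2897 and held 97.5% of autosomal break ends in replicate 1 and 97.7% in replicate 2. This rule also left out 144 bins that held break ends, so density per covered length can rise through the loss of sparse bins. Only 62.4% of chromosome 22 was covered, and per covered length it was the densest autosome in both libraries, at 1.86 and 2.36. Chromosome 19 then had 1.67 and 2.14 and chromosome 20 had 1.73 and 1.96. Chromosome 15 moved from 0.891 and 0.881 to 1.1 and 1.08, and chromosome 4 remained lowest at 0.670 and 0.572.

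Most of the unevenness lay within chromosomes. In 1 Mb bins, with each library set to 1 at its own median bin (322 break ends in replicate 1 and 146 in replicate 2), the 10th percentile was 0.540 in replicate 1 and 0.418 in replicate 2, and the 90th was 2.27 and 3.24. The densest 10% of bins held 24.3% of the break ends of replicate 1 and 31.3% of those of replicate 2. The sparsest 10% held 3.96% and 2.46%. Differences between chromosomes made up 15.8% and 16.1% of the variance of log2 density over bins. Neighbouring bins were alike, with a correlation of log2 density of 0.776 and 0.788 between bins 1 Mb apart, 0.396 and 0.392 at 5 Mb and 0.151 and 0.145 at 20 Mb. This fall with distance was nearly the same in both libraries.

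The densest megabases lay at chromosome ends. The densest without a pile-up in a single window was chromosome 20, 61000001 to 62000000, with 2060 break ends in replicate 1 and 1864 in replicate 2, or 6.40 and 12.8 times the median bin. The next bin towards the end of the long arm, starting at 62000001, had 5.58 and 10.5, and the one before it, starting at 60000001, had 5.73 and 9.53. Bins on chromosome 9 from 139000001 (4.60 and 8.49) and chromosome 17 from 79000001 (4.43 and 8.56) came next, followed by chromosome 10 from 134000001 (4.60 and 7.93), chromosome 19 from 1000001 (4.05 and 8.36) and chromosome 1 from 3000001 (3.90 and 7.88). Each of these 8 bins was denser in replicate 2 than in replicate 1. None held more than 1.18% of its break ends in a single 1 kb window, so that their density was that of the whole megabase.

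Of the 10 densest bins by mean, 2 were of another kind. The bin on chromosome 17 from 33000001 had 14.5 times the median in replicate 1 and 5.59 in replicate 2, and 89.2% and 69.4% of its break ends lay in 1 window of 1 kb. The bin on chromosome 12 from 20000001 had 13.3 and 4.36, with 95.8% and 86.6% in 1 window. Without windows of 50 or more break ends in either library the same bins stood at 1.57 and 1.71 and at 0.565 and 0.582. The former was then moderately dense and the latter sparse, in both libraries alike.

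The pattern at chromosome ends held over the autosomes. With windows of 50 or more break ends left out, the densest bin of an autosome lay among the 5 bins nearest a sequenced chromosome end on 18 of 22 chromosomes, and the sparsest on 0 of 22. The exceptions were chromosomes 3, 6, 11 and 15. On chromosome 6 the densest bin was 33000001 to 34000000 (2.88 and 4.57), and on chromosome 11 it was 64000001 to 65000000 (3.82 and 6.46). On chromosome 3 it was 13000001 to 14000000 (3.52 and 5.2) and on chromosome 15 74000001 to 75000000 (2.86 and 4.08). The same bin was densest in both libraries for 18 of 22 autosomes, but the same bin was sparsest for 4 of 22.

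Density fell with distance from the ends. The 194 covered bins that were among the 5 nearest an end had a median of 2.23 in replicate 1 and 3.20 in replicate 2. Of them, 49.0% and 50% were among the densest 10% of bins. The 191 covered bins among the next 5 had 1.33 and 1.51, and the 1131 at least 40 Mb inside had 0.845 and 0.795. These classes pool all autosomes, and short chromosomes have no bins that far inside. Which chromosomes are counted thus changes with distance, and that part of the fall was not separated. Ends were not all dense: the last covered bin of chromosome 1 had 0.509 and 0.507 and the first of chromosome 3 had 0.581 and 0.534. The 41 bins beside an empty run of at least 1 Mb had medians of 0.972 and 1.05, against 1 for all bins.

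The sparsest values depend on which bins were kept. A bin counts as covered only if it holds enough break ends, the 5 lowest covered bins passed with 73% to 79% of their 10 kb windows, and 144 bins with break ends were left out, so the lowest densities are bounded by that rule. These 5 bins by mean were chromosome 6 from 95000001 (0.388 and 0.240), chromosome 4 from 92000001 (0.410 and 0.240), chromosome 6 from 67000001 (0.425 and 0.226), chromosome 4 from 29000001 (0.398 and 0.260) and chromosome 5 from 22000001 (0.429 and 0.233). These held 125 to 138 break ends in replicate 1 and 33 to 38 in replicate 2, so counting error is wide in the shallower library. All 5 were lower in replicate 2. Chromosome 4 had 46 of its 184 bins (25%) among the sparsest 10%, and chromosomes 13, 15, 20 and 22 had 0. The lowest covered bin of chromosome 22 was at 1.03 and 0.795. Chromosomes 16, 17, 19, 20 and 22 held 11.2% of covered bins and 40.2% of the densest 10%.

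How far the libraries agree was measured at equal depth, by drawing 574645 break ends without replacement from replicate 1. Over 1 Mb bins the Spearman correlation was 0.974 and the Pearson correlation 0.914. Without windows of 50 or more break ends these were 0.976 and 0.979, so a few windows lowered the Pearson value. Within single autosomes the Spearman correlation ran from 0.924 on chromosome 4 to 0.986 on chromosome 16, with a median of 0.970. At full depth the libraries shared 235 of the 260 bins (90.4%) in the densest 10%, and 203 of the 266 or 267 bins in the sparsest (76.3% and 76.0%). These correlations run over bins of the same 2 libraries and carry no test.

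Agreement was lower in narrower bins, which held fewer break ends. The values that follow leave out windows of 50 or more break ends. At 100 kb, with a mean of 21.7 break ends per bin, the Spearman correlation was 0.850. At 10 kb (2.17 per bin) it was 0.503, and at 1 kb (0.217 per window) it was 0.216. At 1 kb, 72.8% of windows were empty in both libraries. When the variance that counting adds was subtracted, the Pearson correlation was 0.988 at 1 Mb, 0.985 at 100 kb, 0.976 at 10 kb and 0.953 at 1 kb. With windows of 50 or more kept, the same quantity was 0.921 at 1 Mb, 0.758 at 100 kb, 0.697 at 10 kb and 0.822 at 1 kb, so close agreement at fine scale holds only outside those windows. As a variance, the difference between the libraries at 1 kb was 1.03 times what counting alone gives, against 7.26 times at 1 Mb. With 0.217 break ends per window, counting dominates this ratio at 1 kb, so it does not show closer agreement there.

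The libraries differed in contrast once windows of 50 or more break ends were left out. The variation between bins beyond counting, as a coefficient of variation, was 1.29 in replicate 1 and 2.08 in replicate 2 at 1 kb. It was 0.715 and 1.08 at 100 kb, 0.599 and 0.893 at 1 Mb and 0.457 and 0.678 at 10 Mb. With those windows kept, the order was turned in narrow bins, at 9.15 and 3.08 for 1 kb and 1.15 and 1.1 for 100 kb, and was as before at 1 Mb (0.658 and 0.893). On the log2 scale the spread of 1 Mb bins, with counting variance subtracted, was 1.41 times as wide in replicate 2. Within all 22 autosomes the ratio of the 90th to the 10th percentile was higher in replicate 2, from 2.93 to 14 against 2.15 to 6.88 in replicate 1. Both libraries thus ordered the bins alike, and replicate 2 had higher peaks and lower floors. The labels name no batch, and the part that depth or handling has in this contrast was not tested beyond the draw to equal depth, where the ratio was 1.40.

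**Figure D2:**
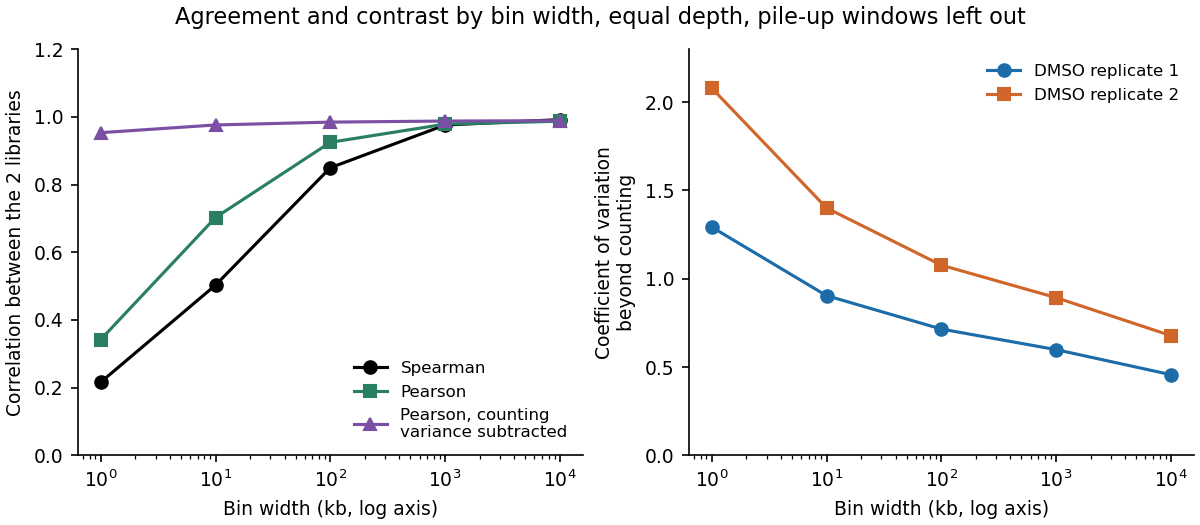
Left, Spearman and Pearson correlations between the libraries at equal depth and the Pearson correlation after subtracting counting variance (vertical axis), by bin width in kb (log axis). Right, the coefficient of variation between bins beyond counting for each library. Windows of 50 or more break ends are left out; the subtracted correlation stays between 0.953 and 0.989 while the plain ones fall towards 1 kb, and replicate 2 lies above replicate 1 at each width.

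Many bins differed between the libraries beyond counting. In a two-sided exact binomial test of each bin's counts against the library totals, 1266 of 2583 covered bins (49%) passed a Benjamini-Hochberg adjusted p under 0.05. This test has counting as its only error and compares these 2 libraries. A larger share in replicate 1 was found for 890 bins (34.5%) and a larger share in replicate 2 for 376 (14.6%). The direction followed density: of the 259 sparsest bins, 201 had the larger share in replicate 1 and 0 in replicate 2, and of the 259 densest, 2 and 232. The difference in share was modest in size for most called bins, since 799 of the 1266 were within 1.5 times. Of the called bins, 39 had less than 0.5 times the share in replicate 2 that they had in replicate 1, and 0 had more than 2 times. The log2 ratio of the libraries had an SD of 0.375 over bins, against 0.155 from counting alone. Once replicate 1 was stretched by the ratio of spreads, the residual SD was 0.229, against 0.175 from counting.

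Bins that departed most from equal shares were named by size. Those with the larger share in replicate 1 were the bins of chromosomes 12 and 17 with pile-up windows and chromosome 14 from 41000001, with 152 and 31 break ends. Their shares in replicate 2 were 0.273, 0.321 and 0.376 times those in replicate 1. In the other direction were chromosome 19 from 1000001, chromosome 1 from 3000001 and chromosome 16 from 88000001 (1141 and 1041 break ends), at 1.72, 1.69 and 1.68 times. The last 3 were dense in both libraries.

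**Figure D3:**
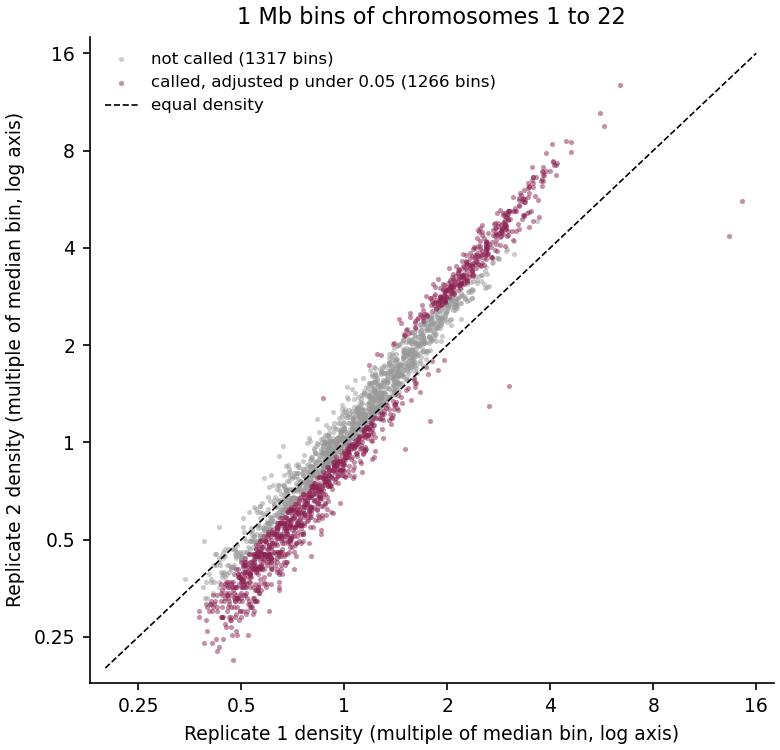
Density of each covered 1 Mb bin (multiple of the median bin) in replicate 1 (horizontal, log axis) and replicate 2 (vertical, log axis); bins called by the exact binomial test, which compares shares of the library totals and not multiples of the median, are dark. The cloud is narrow and steeper than the dashed line of equal density, with 2 bins far below it, those of chromosomes 17 and 12 with a pile-up window.

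At the scale of 1 kb most break ends lay alone or in small groups. In replicate 1, 25% of all 1 kb windows held a break end and in replicate 2 13.9%. Windows with at least 5 numbered 11789 and 7666, and held 8.26% (Wilson 95% interval 8.21 to 8.32) and 9.03% (8.96 to 9.11) of break ends. Windows with at least 10 numbered 686 and 719, with 2.16% and 1.84% of break ends. At equal depth the libraries parted more: at least 5 break ends were found in 2310 windows of replicate 1 and 7666 of replicate 2, and at least 10 in 95 and 719. Replicate 2 thus had more windows of at least 5 at equal depth. These intervals cover counting error only, because break ends of 1 library can share a source.

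In 22 windows, called pile-ups here, at least 50 break ends were found in either library, all 22 in replicate 1 and 9 in replicate 2. They held 1.39% of the break ends of replicate 1 and 0.355% of those of replicate 2. The minimum was applied at full depth, and 13 windows entered through the deeper replicate 1 alone, so a larger share there is partly fixed by the choice. At equal depth, 17 windows of replicate 1 and 9 of replicate 2 reached 50. The 9 that reached 50 in both libraries at full depth include those named next. Chromosome 17, 33478001 to 33479000, held 4174 and 566 break ends, at 82 and 22 positions. Its top position, 33478275 in both libraries, carried 46.6% and 62.5% of them. Chromosome 12, 20704001 to 20705000, held 4115 and 551 with the same top position, 20704441, and chromosome 21, 9827001 to 9828000, held 2235 and 283. Next were chromosome 16, 33963001 to 33964000, with 933 and 86, and chromosome 2, with 653 and 73 from 133012001 and 552 and 54 from 230045001.

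In other pile-up windows there were fewer break ends per position. Chromosome 1, 565001 to 566000, held 283 and 71 break ends at 221 and 60 positions, or 1.28 and 1.18 per position. Chromosome 21 from 9827001 had 8.01 and 2.18 per position. The share of the chromosome 1 window was 2.16 times as large in replicate 1 as in replicate 2. The windows of chromosome 1 from 566001, 568001 and 569001 held 128 and 55, 103 and 34, and 151 and 60, with ratios of 1.26, 1.64 and 1.36. They lie in a stretch known in this assembly to hold a nuclear copy of mitochondrial DNA. Whether reads map uniquely to any pile-up window was not tested.

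Outside the pile-ups and at equal depth, windows that were rich in one library were rich in the other. The expectation used here is the density of the surrounding 1 Mb bin in the library measured. In 2168 windows with 5 to 9 break ends in replicate 1, replicate 2 had 4.77 break ends on average against 0.497 expected, 9.60 times as many. In 6765 windows with 5 to 9 in replicate 2, replicate 1 had 2.13 against 0.418, 5.11 times as many. The relation was graded: windows with 1 break end in replicate 1 had 1.40 times the expected number in replicate 2, those with 2 had 2.24, those with 3 to 4 had 3.81 and the 58 with 10 or more had 30. In the other direction the ratios were 1.37, 1.91, 2.68 and 12.1. Windows empty in one library were below expectation in the other, at 0.75 and 0.808.

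These rich spots were narrow. At 1 kb on either side of windows chosen in replicate 1 the ratio in replicate 2 was 4.23, at 2 kb 2.12, at 3 to 5 kb 1.48 and at 21 to 50 kb 1.15. For windows chosen in replicate 2 the ratios in replicate 1 were 2.86, 1.84, 1.40 and 1.12. With the expectation taken from 100 kb in place of 1 Mb the central ratios were 7.15 and 4.12, so the chosen windows stood above their near surroundings as well.

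**Figure D4:**
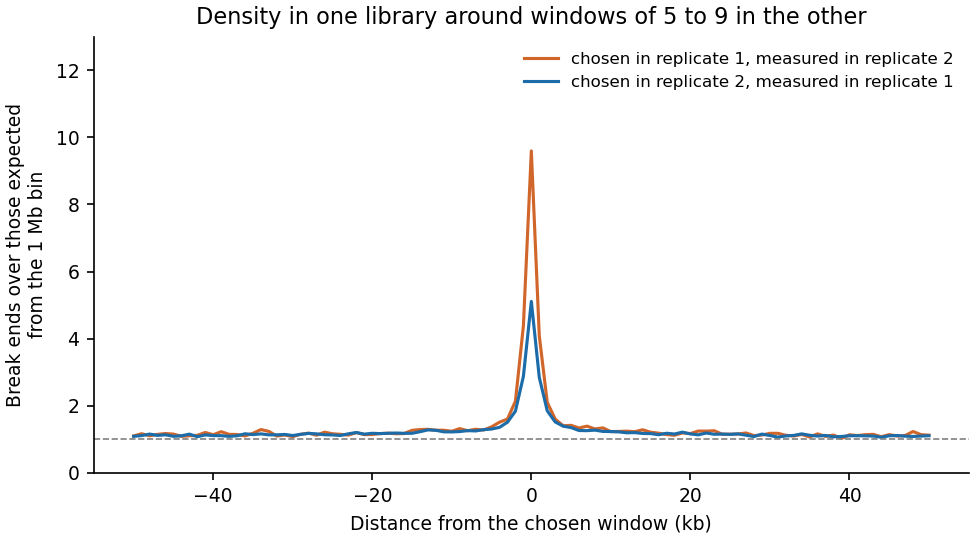
Break ends in one library over those expected from the 1 Mb bin (vertical axis), by distance in kb from 1 kb windows that held 5 to 9 break ends in the other library, at equal depth and without windows of 50 or more. Both curves peak at the chosen window, at 9.60 in replicate 2 and 5.11 in replicate 1, and fall to between 1.12 and 1.15 at 21 to 50 kb.

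At equal depth, without pile-ups, 994 windows had at least 5 break ends in both libraries, 44.7% of the 2226 such windows of replicate 1 and 13.4% of the 7441 of replicate 2. Counts drawn from the 1 Mb densities alone would give 0.559. They were most frequent per window on chromosome 19, which held 87 (8.75% of them against 2.13% of windows), and on chromosome 20, which held 74 (7.44% against 2.29%). Chromosome 7 had the lowest frequency, with 21 (2.11% against 5.58%). Of the 994, 373 lay in the densest 10% of bins and 0 in the sparsest. Of the 0.559 expected from the 1 Mb densities, 0.558 lay in the densest 10%. An expectation for at least 5 break ends rises steeply with density, so it cannot show how far the shared windows were confined to dense bins. The break ends in them lay mostly at different bases: 6179 break ends at 5950 positions in replicate 1 and 8504 at 8068 in replicate 2, with the top position holding a median of 20% and 16.7% of a window's ends.

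The shared windows named here held their break ends mostly at different bases. Chromosome 3, 183903001 to 183904000, held 29 break ends at 24 positions in replicate 1 and 24 at 21 positions in replicate 2. Per 1000000 autosomal break ends these were 27.4 (exact Poisson 95% interval 18.3 to 39.3) and 41.8 (26.8 to 62.1). Chromosome 19, 56165001 to 56166000, held 28 and 24, and chromosome 20, 35402001 to 35403000, held 28 and 19. Some lay in megabases of average density: chromosome 14, 60559001 to 60560000, held 22 and 25 in a bin at 0.972 and 1.15 times the median, and chromosome 4, 122722001 to 122723000, held 20 and 25 in a bin at 0.984 and 0.911. On chromosome 20, 30945001 to 30946000 held 19 in replicate 1 and 39 in replicate 2. Some shared windows that adjoin pile-ups are set apart here. Chromosome 5 from 134263001 held 36 and 19 break ends at 34 and 17 positions. Per 1000000 autosomal break ends these were 33.97 and 33.06, and at equal depth the window held 15 and 19. The window from 134259001 held 32 and 13 at 20 and 11 positions, or 30.2 and 22.6 per 1000000, with overlapping intervals. At equal depth it held 15 and 13, so neither window clearly held more in replicate 1. Human genes were not placed on these windows, since no annotation of GRCh37 was used here, and these windows were picked after their values were seen.

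Single bases recurred between the libraries more often than neighbouring bases did. With pile-up windows left out, each position counted once and equal depth, 2399 positions carried a break end in both libraries, 0.421% of the positions of replicate 1 and 0.422% of those of replicate 2. Pairs of positions 50 to 100 bp apart averaged 509 per distance, so the same base was hit 4.71 times as often as a base at that distance. At 1 bp the ratio was 2.71, at 2 bp 2.32, at 5 bp 1.63 and at 10 bp 1.47, and the mean over 11 to 30 bp was 1.28. Positions with more break ends recurred more. Of those with 1 in replicate 1, 0.403% (Wilson 95% interval 0.387 to 0.420) were found in replicate 2, of those with 2, 3.16% (2.55 to 3.92), and of those with 3 or more, 17.6% (36 of 204, 13 to 23.5). In the other direction these shares were 0.403%, 3.11% and 9.11% (36 of 395, 6.66 to 12.4). Break ends at shared bases were thus a small part of the libraries.

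**Figure D5:**
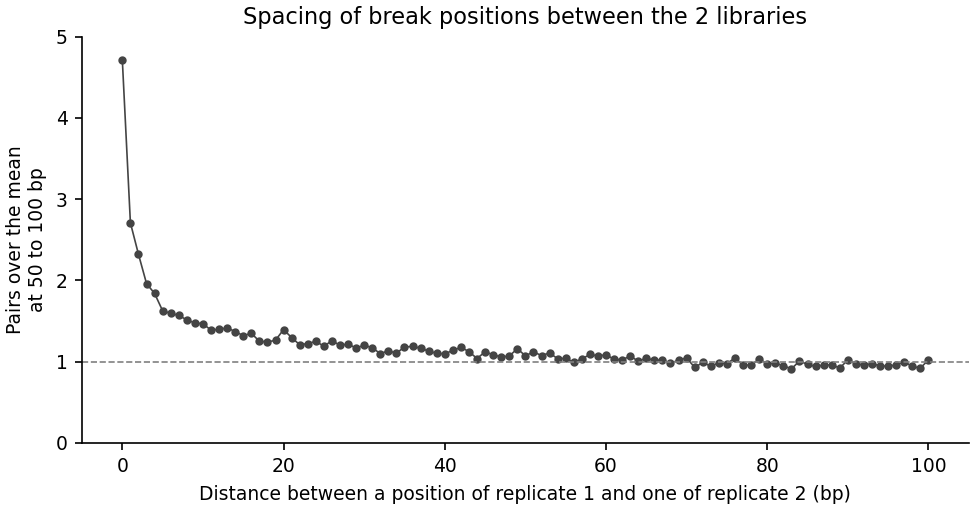
Pairs of a position of replicate 1 and a position of replicate 2 at each distance (horizontal axis, bp) over the mean at 50 to 100 bp (vertical axis), each position counted once, equal depth, windows of 50 or more break ends left out. The ratio is 4.71 at the same base, 2.71 at 1 bp and 1.47 at 10 bp, and beyond that it varies from base to base, with 1.24 at 18 bp and 1.39 at 20 bp.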

How the data were processed

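Only the 2 DMSO libraries of TK6 were used; the other 8 were not analysed here. The deposited files hold raw counts of break ends per position, 1 library per file. Alignment used BWA to GRCh37, per the submitters' processing notes; its version, any filters and the treatment of duplicates are not stated in what was used here. Counts of positions listed more than once (26 and 2 lines) were added up. Counts were summed in bins of 1 Mb and windows of 1 kb over chromosomes 1 to 22, whose lengths are those of GRCh37, held against the highest positions in the files. Libraries were brought to equal depth by 1 seeded draw.

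Bins were compared between the libraries with a two-sided exact binomial test (scipy 1.17.1) and Benjamini-Hochberg adjustment, tested on simulated counts. Correlations are descriptions. Intervals are 95% (Wilson, or exact Poisson) and cover counting error only. With 1 group, no contrast between conditions was made. Regions were named by rule: the 10 densest and 5 sparsest covered bins, 3 bins in each direction of difference, the 10 windows with the highest count in the lower library at equal depth, and sets at chromosome ends and beside empty runs. Windows named outside the pile-ups, and the densest bin of each autosome, were added after values were seen. The libraries, bins and windows were chosen with earlier results of these data known. The planned look at gene positions was left out, as no human annotation was used here. Alternatives were positions counted once, pile-up windows left out, other widths, other coverage, another draw, chromosome X added, and each library alone. Python 3.11.15, numpy 2.4.6, pandas 2.3.3 and matplotlib 3.10.9 were used.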

Additional observations from a re-analysis of the deposited data

How the results depend on the processing

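The ratio of the densest to the sparsest autosome was 2.96 by the mean and 2.50 to 3.6 with a library left out. It was 5.85 with chromosome X added, which then was the sparsest, and within the libraries' spread with positions counted once, pile-up windows left out or covered lengths. The ratio of the 90th to the 10th percentile of 1 Mb bins was 5.98, 4.20 to 7.76 with a library left out, and within that range under the alternatives run. The Spearman correlation of bins went from 0.974 to 0.971 at 90% coverage, 0.957 in 500 kb bins and 0.982 in 2 Mb bins. The Pearson correlation went from 0.914 to 0.977 with positions counted once, 0.979 without pile-up windows, 0.897 at 90% coverage, 0.870 in 500 kb bins and 0.942 in 2 Mb bins. Bins that differed between the libraries numbered 1266 of 2583, and 870 of 1300 in 2 Mb bins, 1361 of 5150 in 500 kb bins, 924 of 1975 at 90% coverage and 1042 of 2583 at equal depth. The share of bins called was thus higher in wider bins, by over 1.5 times between 500 kb and 1 Mb. Wider bins hold more break ends, so smaller differences pass the test. These shares of bins therefore do not show that the libraries differed more at wide scale. The share of break ends in windows of at least 10 was 2.0%, 1.84% to 2.16% with a library left out and 1.68% at equal depth. Of the windows of replicate 1 with at least 5, 45.5% were shared, and 39.7% in windows of 500 bp. Same-base recurrence was 4.28 with all windows kept against 4.71. The ratio of log2 spreads was 1.40 to 1.42 in all 7 alternatives run. Those alternatives, covered lengths and the 100 kb expectation were chosen after seeing the data. No paired analysis was possible because only 1 group of 2 libraries was used. The shallower library, with a median of 146 break ends per 1 Mb bin and 0.199 per kb, limits what single 1 kb windows can show.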

Other observations

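Chromosome X, which the autosomal averages leave out, held 20377 break ends in replicate 1 and 9598 in replicate 2. Its density was 0.357 and 0.310 times that of the autosomes. Its 94 covered bins had medians of 0.464 and 0.476 times the median autosomal bin. Covered bins are those with enough break ends, so these medians leave out the sparser bins of the chromosome. Copies of chromosome X and breaks per copy cannot be told apart here.

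Chromosomes 3 and 13 held more shared windows of at least 5 break ends than their share of windows in covered bins gives. Chromosome 3 held 96 (9.66% of them against 7.51% of windows) and chromosome 13 held 47 (4.73% against 3.68%). Per covered length, the density of chromosome 3 was 0.939 and 0.856 times the average and that of chromosome 13 was 1.06 and 0.938. Chromosome 21 had the widest range of 1 Mb bins, with a ratio of the 90th to the 10th percentile of 6.88 and 14, and chromosome 22 the narrowest, with 2.15 and 2.93.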
